A study of Homo sapiens with 18 samples.

Results

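The genes described here are 10 components and targets of the NF-kB pathway, taken by symbol from the 57448 rows of a gene count matrix of the breast cancer line MDA-MB-231. They are the subunits NFKB1, NFKB2, RELA and RELB, the inhibitors NFKBIA, NFKBIE and TNFAIP3, and the targets BIRC3, TRAF1 and ICAM1. All 10 passed the filter on low counts and were among the 15587 genes tested. RNA-seq was performed on 6 groups of 3 libraries. MDA-MB-231 is a triple negative line of mesenchymal type. The parental cells (WT) carried no modification. The lines KO1 and KO2 carried a knockout of GPS2, a corepressor subunit and inhibitor of ubiquitin conjugation, made with sgRNA set 1 and sgRNA set 2 and lentiviral Cas9. They were selected with puromycin and kept as heterogeneous pools, so a library averages edited cells of several kinds and any cells without an edit. The myrAKT line expressed a myristoylated, constitutively active AKT1 from a retrovirus, and whether it is a pool or a clone is not stated. The groups KO1+MK and KO2+MK were the same knockout lines collected after 4 h in 10 µM MK2206, an allosteric AKT inhibitor. No MK2206-treated WT or myrAKT library is part of the design, no group labelled as vehicle is named, and WT had not received a virus or puromycin by the labels. Nothing states that the 3 replicates of a group were separate cultures, so the p-values measure the spread between these libraries, which may be technical.

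NF-kB factors are dimers of Rel proteins that are held in the cytoplasm by IkB proteins until a kinase complex marks the inhibitor for destruction. In the canonical branch, RELA pairs with the p50 product of NFKB1 after signals such as TNF or interleukin 1. In the alternative branch, RELB pairs with the p52 product of NFKB2, which is processed after the kinase NIK (MAP3K14) accumulates. Several genes of the pathway are themselves transcribed by NF-kB. NFKBIA encodes IkB alpha and TNFAIP3 encodes the ubiquitin-editing enzyme A20, and both act as negative feedback. BIRC3 (the ubiquitin ligase cIAP2), TRAF1 (a receptor adaptor) and ICAM1 (an adhesion molecule) are widely used as readouts of its activity. Constitutive NF-kB activity is a known trait of MDA-MB-231 cells.

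Sequence in front of a transcription start is shown for 5 of these genes, because the kB motif bound by NF-kB can be looked for in it. All 5 stretches hold a marked match. The windows of RELA and TRAF1 held none and are not shown, so the stretches do not stand for all 10 genes. TRAF1 fell more in KO2 (log2 -1.39) than NFKBIA (-1.21) or NFKB2 (-1.16). Windows of 300 bases around a transcription start (250 bases before it and 50 after) were read from RefSeq on GRCh38.p14. A window was found for 8 of the 10 genes, 14 windows in all, and none was found for RELB and NFKBIE. The kB consensus searched for has GGG, a purine, any pair of bases, a pair of pyrimidines and CC, on either strand and with overlaps counted. At least 1 match lay in 6 of the 14 windows and in 5 of the 8 genes (NFKB1, NFKB2, NFKBIA, TNFAIP3 and BIRC3). Of all 35116 windows of this length in RefSeq, 11.27% held a match and 2.04% held 2 or more. The ICAM1 window held no match to the full consensus, but it held the shorter motif GGAAATTCC (GGAATTTCC on the other strand), the first 9 bases of the NFKBIA match, which was chosen after the windows had been read. This shorter motif lay in 3 of the 14 windows (NFKB1, NFKBIA and ICAM1) and in 0.461% of all windows. The NFKBIA window holds it by construction and the windows were known when it was chosen, so these shares cannot show an enrichment. The stretches below end before the first annotated exon base of the window, except for NFKB2, where the last match reaches 1 base into an exon. The NFKB2 stretch lies inside the gene, which begins at chr10:102394110, so it precedes an internal alternative start. They are written 5′ to 3′ on the strand of the gene, in lower case, with capitals for each match to the kB consensus and, in ICAM1 alone, for the shorter motif. They cover chr14:35404750-35404999 on the minus strand for NFKBIA, chr6:137867009-137867213 for TNFAIP3, chr11:102317234-102317483 for BIRC3, chr10:102395455-102395693 for the third NFKB2 window and chr19:10270870-10271092 for ICAM1, the last 4 on the plus strand.
NFKBIA: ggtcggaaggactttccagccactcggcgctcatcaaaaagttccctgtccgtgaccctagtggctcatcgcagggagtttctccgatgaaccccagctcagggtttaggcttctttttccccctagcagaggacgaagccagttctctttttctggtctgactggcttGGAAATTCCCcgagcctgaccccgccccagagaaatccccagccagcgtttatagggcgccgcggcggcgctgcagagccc
TNFAIP3: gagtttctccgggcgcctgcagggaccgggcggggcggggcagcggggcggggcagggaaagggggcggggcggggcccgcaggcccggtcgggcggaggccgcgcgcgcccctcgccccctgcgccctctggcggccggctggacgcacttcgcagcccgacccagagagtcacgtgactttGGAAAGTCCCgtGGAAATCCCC
BIRC3: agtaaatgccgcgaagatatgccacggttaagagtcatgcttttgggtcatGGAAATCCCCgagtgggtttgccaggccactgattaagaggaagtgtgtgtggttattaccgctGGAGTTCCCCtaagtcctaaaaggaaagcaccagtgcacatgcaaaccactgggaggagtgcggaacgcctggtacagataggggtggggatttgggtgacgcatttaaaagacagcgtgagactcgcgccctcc
NFKB2: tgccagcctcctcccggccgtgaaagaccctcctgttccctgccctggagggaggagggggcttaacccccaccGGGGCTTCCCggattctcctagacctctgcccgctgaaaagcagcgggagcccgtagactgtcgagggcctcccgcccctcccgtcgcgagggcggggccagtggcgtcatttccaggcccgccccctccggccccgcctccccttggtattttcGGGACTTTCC
ICAM1: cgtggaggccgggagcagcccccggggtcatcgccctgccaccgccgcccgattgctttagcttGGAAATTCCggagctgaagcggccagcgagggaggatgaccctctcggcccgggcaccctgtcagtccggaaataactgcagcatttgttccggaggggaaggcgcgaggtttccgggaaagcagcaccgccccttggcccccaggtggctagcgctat
The NFKBIA match began 81 bases before the start, the TNFAIP3 matches 67 and 55 bases before it, and the BIRC3 matches 199 and 135 bases before it. In the NFKB2 window the matches began 176 and 21 bases before the internal start. In ICAM1 the shorter motif began 186 bases before the start of that gene. A match describes letters and is not evidence that a factor was bound in these cells.

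The 6 treated libraries were shallower, with 23419198 to 29939536 reads assigned to genes, than the 12 untreated ones (30287210 to 39319910 reads). A member had between 215 and 5359 reads in any library, so none was near the limit of detection. The GPS2 level lay between 4.39 and 4.88 CPM (counts scaled to the normalized size of the library) in WT, 4.45 and 4.52 in KO1 and 5.88 and 6.12 in KO2. KO1 lay within the WT range and KO2 above it. An edit can leave a transcript countable, so this level does not check the knockout. AKT1 stood at 218 to 242 CPM in myrAKT and at 121 to 145 CPM in every other library. The mesenchymal markers VIM, CD44, AXL, CAV1 and MSN summed to 3972 to 5115 CPM in the 18 libraries. The sums were lower after MK2206, at 3972 to 4447 CPM in KO1+MK beside 4843 to 4882 CPM in KO1. In KO2+MK they were 4346 to 4613 CPM, beside 4876 to 5094 CPM in KO2. Of the 5 genes listed as low in such cells, CDH1 and PGR stayed under 0.14 CPM, ESR1 under 1.38 and GATA3 under 4.73, while ERBB2 stood at 79.6 to 93.6 CPM in every group. Markers of HEK293T cells, in which the viruses were made, summed to at most 0.164 CPM. Blood cell markers summed to 1.40 to 2.30 CPM in WT, 0.815 to 1.05 CPM in KO1, 0.598 to 0.771 CPM in KO2, 1.17 to 1.92 CPM in myrAKT and 0.570 to 1.12 CPM after MK2206, and CD14 alone among them passed the filter on low counts.

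Most of the 10 genes had lower RNA levels in all 3 modified lines than in WT, and in both knockout lines the differences of the targets, NFKBIA, TNFAIP3, NFKB2 and RELB were larger than those of NFKB1 and RELA. In KO1 against WT, 7 of 10 genes fell at an adjusted p of at most 0.001 (edgeR's quasi-likelihood test with Benjamini-Hochberg adjustment over all 15587 genes), where 21.3% of all genes tested fell. In KO2 all 10 fell, against 22.2% of all genes, and in myrAKT all 10 fell, against 17.3% of all genes. None rose, where 20.5%, 20.8% and 12.7% of all genes rose in KO1, KO2 and myrAKT. The all-gene split in myrAKT, 1980 higher and 2697 lower, was 2358 and 2312 with upper-quartile normalization and 2413 and 2316 with library totals. With a change of at least 1.5-fold required as well, 3 genes fell in KO1 (9.28% of all genes), 8 in KO2 (11.2%) and 7 in myrAKT (8.83%). The median log2 fold change of the 10 genes was -0.45 in KO1, -1.30 in KO2 and -0.82 in myrAKT, beside medians over all genes of -0.01, 0.01 and 0.02. Every KO2 and every myrAKT library lay below every WT library for all 10 genes, as for 34.2% and 30.6% of all genes. In KO1 this held for 8 genes (33.4% of all genes), and RELA lay above WT (35.8% of all genes lay above). These comparisons use the same 3 WT libraries, so they are not independent of each other. Counts per library are relative to all RNA of the library, so a lower level per cell and fewer cells expressing a gene cannot be told apart.

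**Figure D1:**
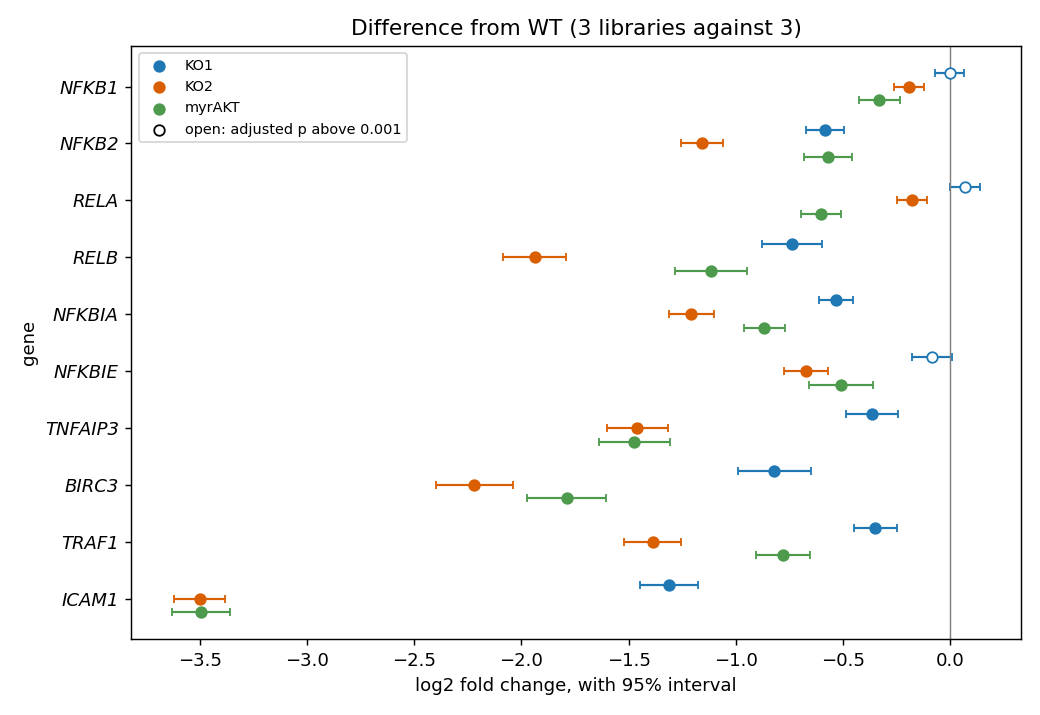
Log2 fold change against WT (x axis) of each of the 10 genes (y axis) in KO1, KO2 and myrAKT, with 95% intervals from edgeR on 3 libraries against 3 and open points for an adjusted p above 0.001. KO2 lies to the left of KO1 for every gene, and ICAM1 reaches -3.50 in KO2 and -3.49 in myrAKT.

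With KO1 and KO2 pooled as 6 libraries, only NFKB2 fell at an adjusted p of at most 0.001 (1 of 10, where 16.6% of all genes fell). Its log2 fold change was -0.85 ± 0.15 (SE, edgeR adjusted p = 5.2e-04). ICAM1, BIRC3 and RELB had larger pooled differences of -2.03, -1.36 and -1.22 that did not pass (edgeR adjusted p = 0.0039, 0.0048 and 0.0034). Those of NFKBIA, TNFAIP3 and TRAF1 were -0.83, -0.81 and -0.78 (adjusted p = 0.0016, 0.023 and 0.022). At an unadjusted p under 0.05, a threshold that 63.9% of all genes met in either direction, 8 of the 10 were lower, and in 8 of the 10 the 6 knockout libraries lay below all 3 WT libraries (26.8% of all genes). The pooled fit counts the difference between the lines as spread, and with KO1 and KO2 as separate groups 8 of 10 fell (26.2% of all genes). The single call depended on single libraries, since 0 of the 10 genes passed without any of the 3 WT replicates or without KO2 replicate 3, and 2 passed without KO1 replicate 2. Over all genes 5006 passed with every library, and 3394 to 4949 on leaving out 1. The lines are therefore given apart below.

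**Figure D2:**
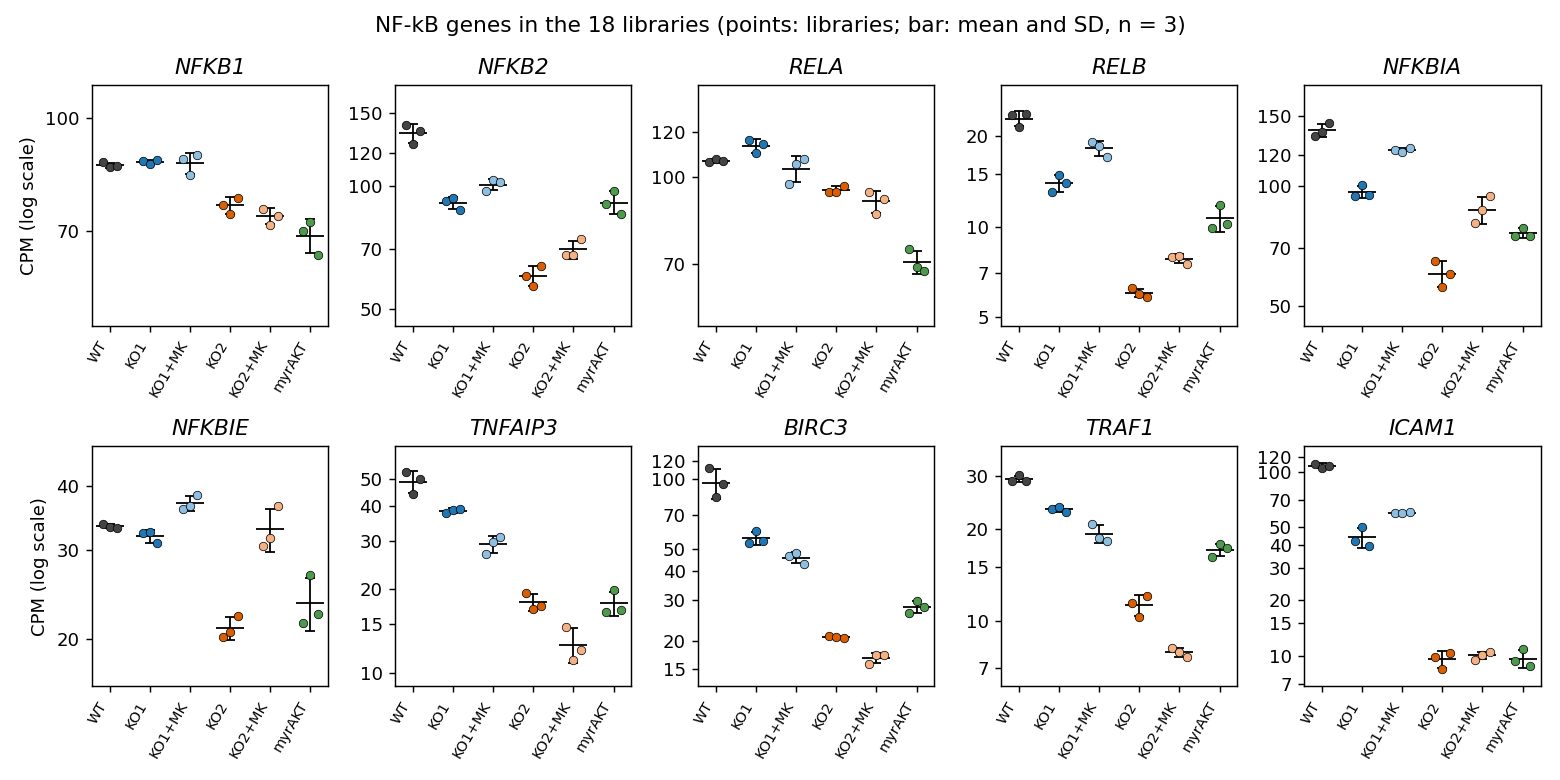
Normalized CPM on a log axis (y axis) of the 10 genes in the 6 groups (x axis), each point a library and each bar the group mean and SD (n = 3). ICAM1 spans an 11.2-fold range of group means and NFKB1 a 1.26-fold range.

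Among the subunits, the pair of the alternative branch fell in every modified line. NFKB2 (chr10:102394110-102402524 of hg38, ENSG00000077150) stood at 141, 126 and 136 CPM in the 3 WT libraries, at 91.8, 93.1 and 87.2 CPM in KO1, at 60.4, 57.0 and 63.7 CPM in KO2 and at 90.3, 97.1 and 85.5 CPM in myrAKT. The groups kept apart from WT in each case, while KO1 and myrAKT overlapped. The log2 fold changes were -0.58 ± 0.04 in KO1, -1.16 ± 0.05 in KO2 and -0.57 ± 0.05 in myrAKT (SE). RELB (chr19:45001461-45038192, ENSG00000104856) stood at 23.6, 21.4 and 23.8 CPM in WT, at 13.0, 14.8 and 14.0 CPM in KO1, at 6.23, 5.97 and 5.85 CPM in KO2 and at 9.91, 11.8 and 10.2 CPM in myrAKT. All 6 groups of RELB were in separate ranges, with no overlap between neighbours in the order WT, KO1+MK, KO1, myrAKT, KO2+MK and KO2. The log2 fold change of RELB was -0.74 ± 0.07 in KO1, -1.94 ± 0.07 in KO2 and -1.12 ± 0.08 in myrAKT.

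The subunits of the canonical branch had the smallest differences in the knockout lines. NFKB1 (chr4:102501330-102617302, ENSG00000109320) stood at 85.6 to 86.9 CPM in WT and 86.5 to 87.6 CPM in KO1, with a log2 difference of 0.00 and a 95% interval of -0.07 to 0.07. It fell in KO2 (log2 -0.19 ± 0.03) and in myrAKT (-0.33 ± 0.04). RELA (chr11:65653599-65663090, ENSG00000173039) was the only member whose KO1 libraries (110 to 116 CPM) all lay above those of WT (106 to 108 CPM), with a difference of 0.07 ± 0.03 that did not pass (edgeR adjusted p = 0.069). RELA fell in KO2 (-0.18 ± 0.03) and in myrAKT (-0.60 ± 0.04), where it stood at 74.4, 69.3 and 68.0 CPM. The small KO2 falls of NFKB1 and RELA were lost when either WT replicate 3 or KO2 replicate 1 was left out (adjusted p between 0.0012 and 0.0022), and that of RELA also without WT replicate 2 (adjusted p = 0.0016). They were lost too with no filter on low counts (adjusted p = 0.0018 and 0.0035), and that of RELA in a fit of all 18 libraries (adjusted p = 0.0012).

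Among the inhibitors, NFKBIA (chr14:35401079-35404749, ENSG00000100906), which encodes IkB alpha, fell in all 3 lines. WT stood at 134, 137 and 144 CPM, KO1 at 94.3, 101 and 95.1 CPM, KO2 at 64.8, 55.7 and 60.2 CPM and myrAKT at 75.0, 78.7 and 74.9 CPM. None of these 4 groups overlapped another. The log2 fold changes were -0.53 ± 0.04, -1.21 ± 0.05 and -0.87 ± 0.05 in KO1, KO2 and myrAKT (SE). NFKBIE (chr6:44258166-44265788, ENSG00000146232), which encodes IkB epsilon, did not pass in KO1 (-0.08 ± 0.04, adjusted p = 0.11, 95% interval -0.18 to 0.01). It fell in KO2 (-0.67 ± 0.05) and in myrAKT (-0.51 ± 0.07), from 33.1 to 33.6 CPM in WT to 20.2 to 22.2 CPM in KO2 and 21.5 to 26.7 CPM in myrAKT. TNFAIP3 (chr6:137867214-137883314, ENSG00000118503), the A20 gene, stood at 53.0, 44.2 and 50.1 CPM in WT, 37.9, 38.7 and 39.2 CPM in KO1, 19.4, 17.0 and 17.4 CPM in KO2 and 16.6, 19.8 and 16.9 CPM in myrAKT. KO2 and myrAKT overlapped for this gene and lay below KO1. Its log2 fold changes were -0.37 ± 0.06 in KO1, -1.46 ± 0.07 in KO2 and -1.47 ± 0.08 in myrAKT.

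The 3 targets included the largest changes of the 10 genes. ICAM1 (chr19:10271093-10286615, ENSG00000090339) stood at 111, 104 and 108 CPM in WT and at 42.2, 50.04 and 39.5 CPM in KO1. Its KO2 libraries stood at 9.86, 8.49 and 10.4 CPM, and its myrAKT libraries at 9.34, 10.8 and 8.74 CPM. KO2 and myrAKT overlapped, and both lay far below KO1. The falls were 2.48-fold in KO1 (log2 -1.31 ± 0.06), 11.3-fold in KO2 (log2 -3.50 ± 0.05) and 11.3-fold in myrAKT (log2 -3.49 ± 0.06). Of the 3448 exon bases of ICAM1, 815 (23.6%) are shared with the antisense gene ICAM4-AS1, and whether reads were counted by strand is not stated, so reads of these genes cannot be told apart there. BIRC3 (chr11:102317484-102339403, ENSG00000023445) stood at 111, 83.1 and 94.8 CPM in WT, 52.8, 59.3 and 53.9 CPM in KO1, 21.0, 20.8 and 20.6 CPM in KO2 and 26.3, 29.7 and 28.0 CPM in myrAKT. No group of BIRC3 overlapped another. It fell 1.76-fold in KO1, 4.66-fold in KO2 and 3.46-fold in myrAKT. TRAF1 (chr9:120902393-120929173, ENSG00000056558) stood at 28.9 to 30.2 CPM in WT, 22.9 to 23.8 CPM in KO1, 10.3 to 12.1 CPM in KO2 and 16.2 to 17.8 CPM in myrAKT. Its falls were 1.27-fold, 2.62-fold and 1.72-fold, and its 6 groups did not overlap.

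Levels can be set side by side between genes only per length. The length used joins the exons of all annotated transcripts of a gene. The transcripts in use may be shorter by unequal shares, so the order between genes is approximate. Per kilobase of annotated exon, the WT level was highest for NFKBIA at 40.7 ± 1.53 CPM per kb, ICAM1 at 31.2 ± 0.908 CPM per kb and NFKB2 at 24.04 ± 1.33 CPM per kb (SD, n = 3). In KO2, ICAM1 stood at 2.77 ± 0.281 CPM per kb, BIRC3 at 2.77 ± 0.0258 CPM per kb and RELB at 2.01 ± 0.0651 CPM per kb. The highest there were NFKBIA at 17.7 ± 1.35 CPM per kb and RELA at 17.4 ± 0.258 CPM per kb, which did not differ beyond their spread.

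The knockout lines differed from each other in all 10 genes. KO2 was lower than KO1 for each of them (10 of 10, where 7.06% of all genes were lower; over all genes 1964 passed in either direction, and 1161 without KO1 replicate 1), and 7 passed with a change of at least 1.5-fold as well (1.87% of all genes). The KO2 libraries lay below all KO1 libraries for all 10 (25.4% of all genes). The median log2 difference of the 10 was -0.86, beside 0.00 over all genes. ICAM1 differed by -2.19 ± 0.08 on the log2 scale, BIRC3 by -1.40 ± 0.05, RELB by -1.20 ± 0.08, TNFAIP3 by -1.09 ± 0.05 and TRAF1 by -1.04 ± 0.06 (SE, edgeR adjusted p of at most 3.8e-09 for each). The inhibitors NFKBIA and NFKBIE differed by -0.67 ± 0.04 and -0.59 ± 0.05. The smallest differences were those of RELA (-0.25 ± 0.03) and NFKB1 (-0.19 ± 0.03), and that of NFKB1 was lost without KO1 replicate 1, KO1 replicate 3 or KO2 replicate 1 (adjusted p between 0.0011 and 0.0021). The labels separate the lines only by their sgRNA set, and the lines were also transduced apart, so guide set and line cannot be told apart.

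Treatment with the AKT inhibitor went with rises of some members and falls of others. Among inhibitors and subunits, NFKBIA and NFKBIE rose in both lines and RELB in KO1, as did the target ICAM1 in KO1, while the inhibitor TNFAIP3 fell in both lines and the target TRAF1 fell in KO2. In KO1, 4 of 10 genes rose (10.9% of all genes) and 1 fell (8.26% of all genes). In KO2, 2 rose (13.1%) and 2 fell (8.78%). Over all genes, 1697 rose and 1288 fell in KO1 and 2047 rose and 1369 fell in KO2, splits that turned to 1473 and 1602 and to 1680 and 1854 with upper-quartile normalization. The totals of 2985 and 3416 were 1748 and 1900 without KO1 replicate 1 or 3, and 2211 and 2156 without KO2 replicate 1 or KO2+MK replicate 2. The median log2 change of the 10 was 0.10 in KO1 and 0.03 in KO2, beside 0.01 and -0.01 over all genes. The treated libraries were the shallower ones, as given above, and the part of depth in these changes was not tested. The count of 5 in KO1 was 2 without KO1 replicate 1, 3 without KO1 replicate 3 or KO1+MK replicate 2 and 8 without KO1+MK replicate 1, and the count of 4 in KO2 was 2 without KO2 replicate 1, KO2 replicate 3 or KO2+MK replicate 2.

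**Figure D3:**
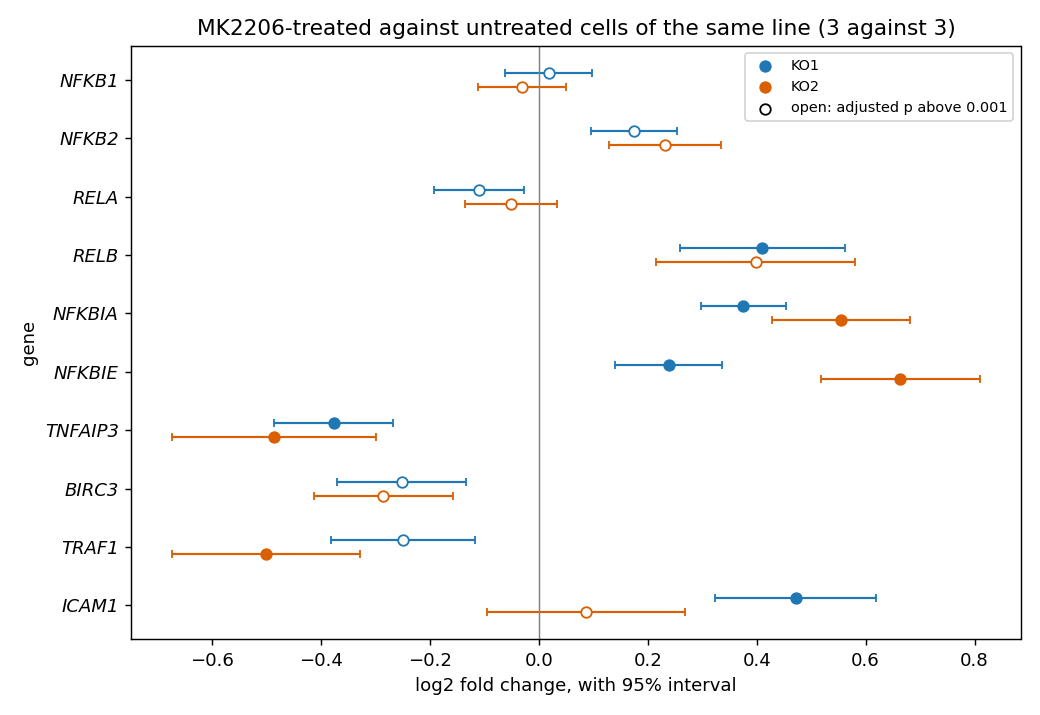
Log2 fold change of MK2206-treated against untreated cells of the same line (x axis) for the 10 genes (y axis) in KO1 and KO2, with 95% intervals from edgeR on 3 libraries against 3 and open points for an adjusted p above 0.001. NFKBIA and NFKBIE lie to the right of 0 and TNFAIP3 to the left in both lines.

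NFKBIA stood at 124, 122 and 125 CPM in KO1+MK and at 80.6, 86.9 and 94.3 CPM in KO2+MK. All treated libraries lay above the untreated ones of their line and below those of WT. The rise was 1.30-fold in KO1 (log2 0.38 ± 0.04, edgeR adjusted p = 3.5e-06) and 1.47-fold in KO2 (log2 0.55 ± 0.06, adjusted p = 3.0e-06). NFKBIE stood at 36.0, 36.5 and 38.4 CPM in KO1+MK, above the WT range, and at 30.5, 31.6 and 36.5 CPM in KO2+MK, overlapping it. Its log2 change was 0.66 ± 0.07 in KO2 (adjusted p = 2.1e-06) and 0.24 ± 0.05 in KO1 (adjusted p = 9.2e-04). The KO1 call is at the edge of the threshold and was lost under 6 alternatives and on leaving out any of 5 of the 6 libraries, all but KO1+MK replicate 1 (adjusted p between 0.0022 and 0.0090).

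RELB stood at 19.1, 18.6 and 17.1 CPM in KO1+MK and 7.95, 8.01 and 7.52 CPM in KO2+MK. Treated and untreated libraries did not overlap in either line. RELB rose in KO1 (log2 0.41 ± 0.07, adjusted p = 4.0e-04), and its change in KO2 was of similar size without passing (0.40 ± 0.09, adjusted p = 0.0014). The RELB call in KO1 was lost without KO1 replicate 1, KO1 replicate 3 or KO1+MK replicate 2 (adjusted p between 0.0025 and 0.0039). The change of NFKB2 was 0.17 ± 0.04 in KO1 (adjusted p = 0.0016) and 0.23 ± 0.05 in KO2 (adjusted p = 0.0011), neither of which passed. For NFKB1 and RELA no change passed in either line, with 95% intervals between -0.11 and 0.10 for NFKB1 and between -0.19 and 0.03 for RELA.

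The targets did not move together. ICAM1 rose in KO1, to 59.7, 59.7 and 60.1 CPM (log2 0.47 ± 0.07, adjusted p = 1.1e-04), a call lost without KO1 replicate 1 (adjusted p = 0.0016). In KO2+MK it stood at 9.49, 10.1 and 10.5 CPM, overlapping the untreated range, with a log2 difference of 0.09 and a 95% interval of -0.10 to 0.27. The difference of the ICAM1 response between the lines was -0.38 ± 0.12 and did not pass (edgeR adjusted p = 0.34). TRAF1 fell in KO2 to 8.12, 7.87 and 7.58 CPM (log2 -0.50 ± 0.08, adjusted p = 1.4e-04) and stood at 20.9, 18.8 and 18.4 CPM in KO1+MK (log2 -0.25 ± 0.06, adjusted p = 0.0049). BIRC3 stood at 46.4, 47.7 and 43.0 CPM in KO1+MK and 15.8, 17.4 and 17.3 CPM in KO2+MK, with log2 differences of -0.25 ± 0.05 and -0.29 ± 0.06 that did not pass (adjusted p = 0.0023 and 0.0011). TNFAIP3 fell to 26.9, 29.7 and 30.9 CPM in KO1+MK (log2 -0.38 ± 0.05, adjusted p = 5.8e-05) and to 14.7, 11.1 and 12.1 CPM in KO2+MK (log2 -0.49 ± 0.09, adjusted p = 3.5e-04). The KO2 calls of TNFAIP3 and TRAF1 were lost without KO2 replicate 1, KO2 replicate 3 or KO2+MK replicate 2 (adjusted p between 0.0011 and 0.0041), and that of TNFAIP3 also without KO2+MK replicate 3 (adjusted p = 0.0015). Treated libraries lay above the untreated ones for 5 genes in KO1 and 4 in KO2 (25.4% and 26.2% of all genes) and below them for 4 genes in each line (30.1% and 29.2% of all genes).

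With the lines pooled, 0 of 10 genes passed for MK2206 (12.8% of all genes rose and 8.75% fell), by edgeR and by DESeq2. That is 1988 rises and 1364 falls over all genes, which were 1695 and 1812 with upper-quartile normalization. At an unadjusted p under 0.05, which 53.4% of all genes met, there were 2, NFKBIA (log2 0.45 ± 0.16, adjusted p = 0.037) and NFKBIE (0.42 ± 0.12, adjusted p = 0.012). The spread between the lines enters this fit, and with a covariate for the line 5 genes rose (19.7% of all genes) and 3 fell (16.7%). The response did not differ between the lines at the threshold for any of the 10 genes (0 of 10 by edgeR and by DESeq2, beside 0.0128% of all genes), with 4 at an unadjusted p under 0.05 (8.03% of all genes). The largest of these differences was NFKBIE, whose change was 0.43 ± 0.09 higher in KO2 (adjusted p = 0.047).

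A direct comparison set the myrAKT line against the pooled knockout lines. These lines differ in vector and making as well as in the modification, which cannot be told apart. The paper reports raised AKT phosphorylation in the knockout cells too. RELA was the only member that passed (1 of 10 lower, where 19.1% of all genes were lower), with a log2 difference of -0.55 ± 0.08 (edgeR adjusted p = 6.2e-05). Over all genes 2606 were higher and 2975 lower, a split that turned to 3058 and 2482 with upper-quartile normalization and to 3096 and 2429 with library totals. The RELA levels of the myrAKT libraries (68.0 to 74.4 CPM) lay below all 6 knockout libraries (94.0 to 116 CPM), as did those of NFKB1 (64.8 to 71.9 CPM beside 73.9 to 87.6 CPM, -0.23 ± 0.06, adjusted p = 0.0073). No other gene lay apart (2 of 10, where 30.6% of all genes lay below). For 6 of the other 8 members the myrAKT mean stood between those of KO1 and KO2, whose distance widens the spread of the pooled group, and with the lines as separate groups 5 were lower (26.4% of all genes) and 1 was higher (24.1%). ICAM1 differed by -1.46 ± 0.60 (adjusted p = 0.051) with a 95% interval from -2.77 to -0.15.

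After MK2206, 7 of the 10 genes still lay below WT in every one of the 6 treated libraries (27.1% of all genes), and none passed against WT at an adjusted p of at most 0.001 in the pooled fit (0 of 10 by edgeR, where 16.1% of all genes were lower and 16% higher). DESeq2 passed 2 of them (41.2% of all genes), 8 had an unadjusted p under 0.05 (63.8%), and 7 passed with the lines as separate groups (45.9%). The count by edgeR was 1 without KO1+MK replicate 1 or KO1+MK replicate 3 and 2 without KO1+MK replicate 2. Over all genes 4994 passed with every library, and 3128 to 4954 on leaving out 1. The fold changes remained between -1.64 ± 0.55 for ICAM1 and -0.40 ± 0.13 for NFKBIA among those 7 genes. NFKBIE was the exception among the inhibitors, at 30.5 to 38.4 CPM beside 33.1 to 33.6 CPM in WT (log2 0.06 ± 0.07, 95% interval -0.09 to 0.21).

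Over all 6 groups WT held the highest mean for 7 of the 10 genes. The exceptions were NFKB1 and RELA, highest in KO1, and NFKBIE, highest in KO1+MK. The ratio of the highest to the lowest group mean was 11.2 for ICAM1, 5.73 for BIRC3, 3.89 for TNFAIP3, 3.82 for RELB and 3.73 for TRAF1. It was 2.29 for NFKBIA, 2.22 for NFKB2, 1.76 for NFKBIE, 1.61 for RELA and 1.26 for NFKB1. The lowest group was KO2 for NFKB2, RELB, NFKBIA, NFKBIE and ICAM1, KO2+MK for TNFAIP3, BIRC3 and TRAF1, and myrAKT for NFKB1 and RELA. Neighbouring groups in these orders overlapped in 4 of 5 places for NFKB1, 3 of 5 for NFKBIE, 2 of 5 for NFKB2 and ICAM1, 1 of 5 for RELA, NFKBIA and TNFAIP3, and nowhere for RELB, BIRC3 and TRAF1.

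The wider pathway was covered by 86 other genes in 6 lists ordered by role, of which 75 were tested. In KO1 9 of them rose and 28 fell, in KO2 9 rose and 39 fell, and in myrAKT 8 rose and 29 fell. The falls were 37.3%, 52% and 38.7% of the 75, beside 21.3%, 22.2% and 17.3% of all genes, and the rises 12%, 12% and 10.7%, beside 20.5%, 20.8% and 12.7%. The medians of the 75 log2 fold changes were -0.13, -0.26 and -0.17, beside -0.01, 0.01 and 0.02 over all genes. The falls were most frequent among ligands and targets. Of the 5 ligands tested, 4 fell in KO1 and all 5 fell in KO2 and in myrAKT, with medians of -0.82, -1.98 and -1.78. IL1A, an interleukin that signals to NF-kB, stood at 26.4 to 32.7 CPM in WT, 5.66 to 8.25 CPM in KO1, 1.60 to 2.88 CPM in KO2 and 2.49 to 4.06 CPM in myrAKT. IL1B stood at 62.3 to 71.7 CPM in WT, 13.3 to 20.5 CPM in KO1 and 3.77 to 4.94 CPM in KO2, but at 35.4 to 44.8 CPM in myrAKT (log2 -0.75 ± 0.08). TNFSF10, the TRAIL gene, fell in KO1 (log2 -0.82 ± 0.15), KO2 (-1.98 ± 0.20) and myrAKT (-2.17 ± 0.18) from a low level of 3.83 to 5.02 CPM in WT. TNFSF12, the TWEAK gene, fell in KO1 (-0.66 ± 0.07), KO2 (-0.95 ± 0.08) and myrAKT (-0.44 ± 0.07). TNF and 4 other ligands were below the filter.

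**Figure D4:**
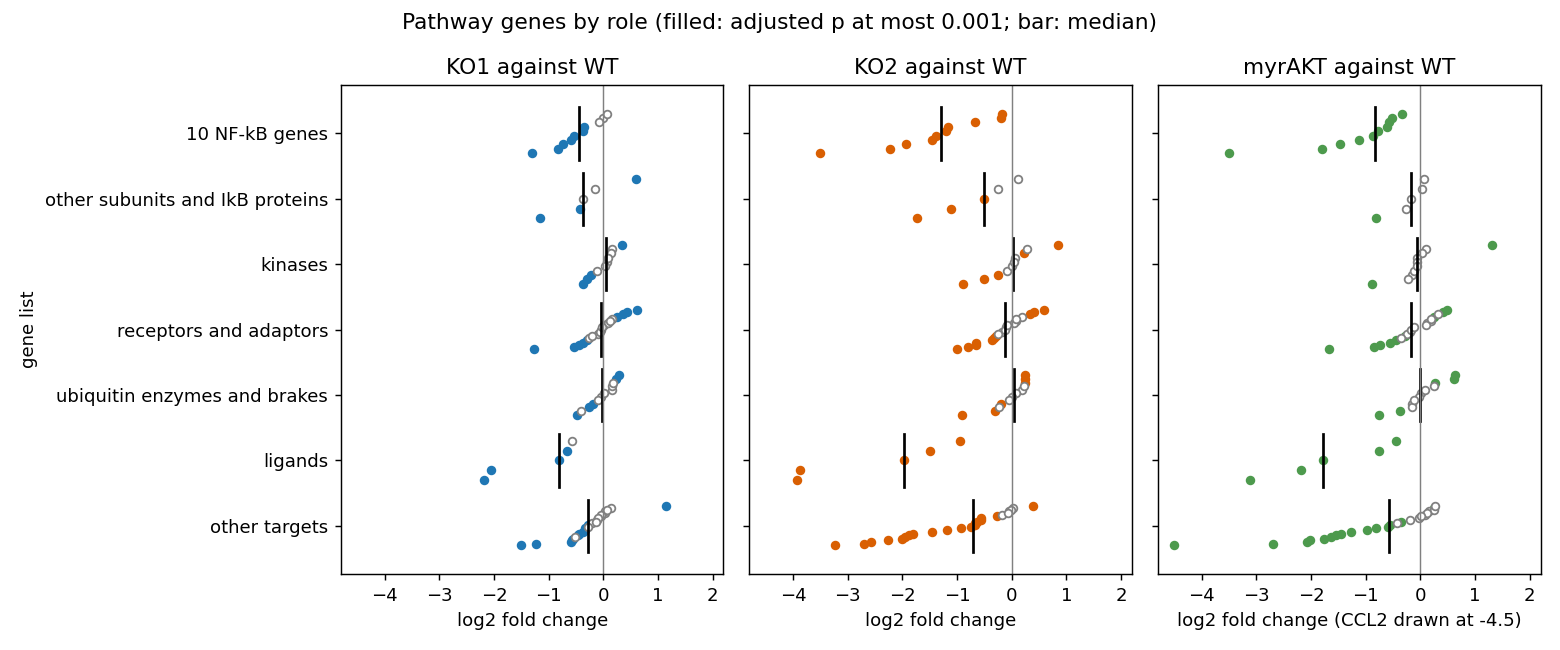
Log2 fold change against WT (x axis) of the 10 genes and of the 75 other pathway genes by list (y axis) in KO1, KO2 and myrAKT, with filled points for an adjusted p of at most 0.001 and bars for list medians; CCL2, with 0 reads in myrAKT, is drawn at the left edge. Ligands and targets lie mostly to the left of 0, and kinases, receptors and ubiquitin enzymes lie around it, with medians between -0.17 and 0.04.

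Of the 24 other targets tested, 11 fell and 1 rose in KO1, 18 fell and 1 rose in KO2, and 14 fell and 1 rose in myrAKT. These falls were 45.8%, 75% and 58.3% of the list, beside 21.3%, 22.2% and 17.3% of all genes, and each single rise was 4.17% of it, beside 20.5%, 20.8% and 12.7%, with medians of -0.28, -0.71 and -0.57. CSF2, the GM-CSF gene, stood at 29.5 to 33.3 CPM in WT, 9.55 to 13.4 CPM in KO1, 2.88 to 3.91 CPM in KO2 and 6.58 to 9.88 CPM in myrAKT. The neutrophil chemokine gene CXCL8 fell in all 3 lines, with log2 fold changes of -0.47 ± 0.09 in KO1, -2.70 ± 0.07 in KO2 and -2.08 ± 0.08 in myrAKT. For the chemokine gene CXCL1 they were -0.44 ± 0.09, -2.57 ± 0.10 and -2.69 ± 0.12, in the same order. BCL2A1, a survival gene of the BCL2 family, also fell in each line (-1.23 ± 0.13, -1.46 ± 0.12 and -1.54 ± 0.13). NUAK2, which encodes a kinase related to AMPK, fell as well (-0.58 ± 0.07, -1.18 ± 0.08 and -1.63 ± 0.08). CCL2, a monocyte chemokine gene, went against the others in KO1, where it rose (28.1 to 37.7 CPM beside 13.7 to 15.0 CPM in WT), and it fell in KO2 (6.66 to 9.14 CPM, log2 -0.92 ± 0.10). It had 0 reads in all 3 myrAKT libraries, at least 148-fold lower than WT when each library is set to a floor of 3 counts, and the list median of -0.57 was the same with CCL2 at that bound.

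Among the 5 other subunits and IkB proteins, 2 fell and 1 rose in KO1, 3 fell in KO2 and 1 fell in myrAKT. BCL3, a nuclear IkB protein that acts with p50 and p52, fell in KO1 (log2 -1.16 ± 0.09) and in KO2 (-1.73 ± 0.09), and its difference of -0.27 ± 0.08 in myrAKT did not pass (edgeR adjusted p = 0.014). NFKBIZ, another nuclear IkB protein, fell in KO1, KO2 and myrAKT (-0.43 ± 0.07, -1.12 ± 0.04 and -0.80 ± 0.05). Of the 10 kinases, 1 rose and 3 fell in KO1, 2 and 3 in KO2 and 1 and 1 in myrAKT, which is 10%, 20% and 10% higher and 30%, 30% and 10% lower. The shares of all genes were 20.5%, 20.8% and 12.7% higher and 21.3%, 22.2% and 17.3% lower. MAP3K14, the NIK kinase of the alternative branch, rose in each line, by 0.35 ± 0.06, 0.85 ± 0.06 and 1.32 ± 0.07 on the log2 scale, while NFKB2 and RELB of that branch fell. IKBKE, an IKK-related kinase, fell in KO1 (-0.31 ± 0.05), KO2 (-0.89 ± 0.05) and myrAKT (-0.88 ± 0.06). IKBKB, a catalytic subunit of the IkB kinase, fell in KO1 (-0.37 ± 0.06) and KO2 (-0.51 ± 0.06), as did TAB3, a partner of the kinase TAK1 (-0.22 ± 0.04 and -0.26 ± 0.04), and in myrAKT neither passed (-0.22 ± 0.06 and -0.05 ± 0.05).

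Of the 19 receptors and adaptors, 4 rose and 5 fell in KO1, 3 rose and 7 fell in KO2, and 3 rose and 6 fell in myrAKT. The rises were 21.1%, 15.8% and 15.8% of the list, beside 20.5%, 20.8% and 12.7% of all genes, and the falls were 26.3%, 36.8% and 31.6% of the list, beside 21.3%, 22.2% and 17.3% of all genes. The TNF receptor gene TNFRSF1A stood at 170 to 182 CPM in WT, 119 to 126 CPM in KO1, 109 to 116 CPM in KO2 and 138 to 153 CPM in myrAKT, and it fell in each. CD40, another receptor of this family, fell in the 3 lines (log2 -0.44 ± 0.04, -0.81 ± 0.04 and -0.84 ± 0.05). TNFRSF1B, the other TNF receptor gene, fell in KO1 (-0.38 ± 0.06), KO2 (-0.64 ± 0.05) and myrAKT (-1.67 ± 0.07). IL1R1, the interleukin 1 receptor gene, fell in KO1 (-1.27 ± 0.12) and KO2 (-1.01 ± 0.10), while its myrAKT difference was 0.32 ± 0.07 (edgeR adjusted p = 0.0017). BIRC2, the cIAP1 gene, fell in KO2 (-0.32 ± 0.04) and myrAKT (-0.73 ± 0.04) and had a difference of -0.03 ± 0.03 in KO1. Of the 12 ubiquitin enzymes and brakes, 2 rose and 3 fell in KO1, 3 and 3 in KO2 and 3 and 2 in myrAKT. Their falls were 25%, 25% and 16.7% of the list, beside 21.3%, 22.2% and 17.3% of all genes, and their rises 16.7%, 25% and 25%, beside 20.5%, 20.8% and 12.7%. TNIP1, a partner of A20, fell in the same way (-0.47 ± 0.03, -0.91 ± 0.04 and -0.75 ± 0.04). RBCK1, a subunit of the linear ubiquitin ligase, fell in KO1 and KO2 (-0.25 ± 0.04 and -0.30 ± 0.04), with 0.09 ± 0.05 in myrAKT. OTULIN, which removes linear ubiquitin chains, rose in myrAKT (0.61 ± 0.04) and passed in neither knockout line (-0.05 ± 0.04 and 0.07 ± 0.04). N4BP1, an inhibitor of the pathway, rose in myrAKT (0.64 ± 0.04) and KO2 (0.25 ± 0.04), with 0.01 ± 0.04 in KO1. UBE2N, the ubiquitin-conjugating enzyme UBC13 that GPS2 inhibits, rose by 0.28 ± 0.03 in KO1 and by 0.25 ± 0.03 in KO2, and its difference in myrAKT was -0.14 ± 0.05 (edgeR adjusted p = 0.023).

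Under MK2206, 9 of the 75 genes rose and 6 fell in KO1, and 12 rose and 9 fell in KO2. In KO1 these were 12% and 8% of the list, beside 10.9% and 8.26% of all genes, and in KO2 16% and 12%, beside 13.1% and 8.78%, so the list stood near the background. In the pooled fit 8 rose (10.7%) and 3 fell (4%), beside 12.8% and 8.75% of all genes. REL, the c-Rel subunit, which was lower in the pooled knockout lines than in WT (-0.44 ± 0.08, edgeR adjusted p = 9.0e-04), rose by 0.65 ± 0.09 on the log2 scale from 13.1 to 17.0 CPM in the 6 untreated to 18.6 to 26.3 CPM in the 6 treated knockout libraries. IER3, an early response target, rose by 0.66 ± 0.13, the survival gene BCL2L1 fell (-0.48 ± 0.04), and the adaptor TRAF6 rose by 0.53 ± 0.04. The receptor IL1R1 rose by 0.71 ± 0.12, TAB3 by 0.30 ± 0.03, the caspase inhibitor XIAP by 0.30 ± 0.04 and TAX1BP1, a partner of A20, by 0.14 ± 0.02. The adaptor TRAF5 (-0.56 ± 0.06) and UBE2N (-0.19 ± 0.03) fell. Of the 5 ligands, 0 passed (edgeR), with a median of -0.21.

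The patterns of the members over the 18 libraries were compared by Pearson's r of log2 CPM, as a description. The libraries fall into 6 groups, so r mostly follows differences between groups. The highest value among the members was 0.97 between BIRC3 and TNFAIP3, followed by 0.95 between NFKB2 and RELB, the subunits of the alternative branch, and 0.95 between BIRC3 and TRAF1. RELA had the lowest median r with the other 9 members (0.55) and its lowest value with NFKB2 (0.28). NFKBIE was also apart, with 0.32 for TRAF1 and 0.86 for NFKBIA.

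**Figure D5:**
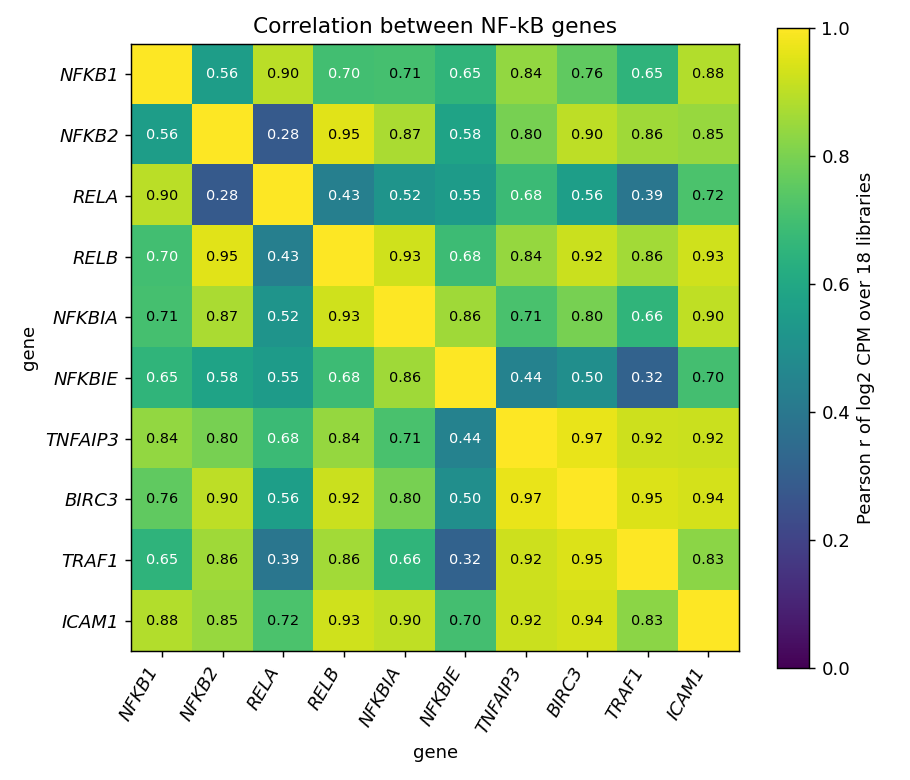
Pearson's r of log2 CPM over 18 libraries between each pair of the 10 genes (both axes list the genes; the colour scale runs from 0 to 1). BIRC3, TNFAIP3, TRAF1 and ICAM1 share values of 0.83 to 0.97, and RELA shares its highest value, 0.90, with NFKB1.

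Among all genes tested, the gene most like each member was IKBKE for TNFAIP3 (0.99), RNH1 for RELA (0.99), MGAT5 for NFKBIA (0.99), CEP57 for ICAM1 (0.99), TMEM154 for BIRC3 (0.98), ROBO2 for NFKB2 (0.98), CSF2 for TRAF1 (0.98), FBXL16 for NFKB1 (0.97), ADAM8 for RELB (0.97) and DDIT3 for NFKBIE (0.95), each as r over 18 libraries. The next in order were DPAGT1 and SRPRA for NFKB1, DAB2 and PDIA4 for NFKB2, DCPS and RAC3 for RELA, H2BC6 and ULK2 for RELB, and HSPA5 for NFKBIA after NFKBIZ. They were FOXA1 for NFKBIE before IER3, KLHL5 and CLMP for TNFAIP3, SHROOM3 and PRSS12 for BIRC3, TMEM154 for TRAF1 before TRAF3, and APLP2 and DCAF8L2 for ICAM1, with r from 0.94 to 0.99. The 3 genes most like each member included 5 from the pathway lists. These were NFKBIZ for NFKBIA (0.98), IER3 for NFKBIE (0.93), IKBKE for TNFAIP3, and CSF2 and TRAF3 for TRAF1 (0.98 and 0.97). No member was among the 3 genes most like another member.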

How the data were processed

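The authors deposited counts, the reads assigned to each Ensembl gene, without normalization. Per the paper's methods, the libraries were ribosome-depleted and sequenced over separate runs, and whether every library was in each run is not stated. Reads were trimmed with Trim Galore, aligned to hg38 with HISAT2 and counted with featureCounts. Versions, annotation, strand setting and the treatment of reads in several genes are not given in the sources used here.

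Symbols and positions came from GENCODE release 44 (56948 of 57448 rows matched, SOD2 not). Genes were kept if 3 or more of the 18 libraries reached 1 CPM, and were tested with edgeR 4.0.16 (TMM, quasi-likelihood, two-sided, Benjamini-Hochberg) in R 4.3.3, with only the compared groups in each fit. The study used DESeq2, here an alternative (1.42.0). A gene passed when its adjusted p did not exceed 0.001. Log2 CPM used a prior count of 2. Motifs and figures used Python 3.11.15, pandas 2.3.3, numpy 2.4.6 and matplotlib 3.10.9. The scripts were tested on simulated data.

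The 10 genes, the lists and the tests were chosen with earlier results of these data known. Other genes were named by a rule, the 3 largest changes of each list in KO and myrAKT against WT and in the pooled MK2206 comparison, among genes that passed with a mean of at least 100 counts, and the 3 genes most like each member. Replicates differed by more than counting error (mean chi-square per gene 2.26 to 11.6). Alternatives were DESeq2, 3 normalizations, 2 filters, a fit of all 18 libraries, separate lines, a line covariate, a replicate block, other thresholds and the omission of each library.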

Additional observations from a re-analysis of the deposited data

Results flagged for a closer look

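The effect of the knockout against WT differed between KO1 and KO2 for each of the 10 genes, by a test of the difference itself (edgeR, KO2 against KO1, adjusted p of at most 0.001). The difference, KO2 minus KO1 on the log2 scale, was -2.19 for ICAM1, -1.40 for BIRC3, -1.20 for RELB, -1.09 for TNFAIP3 and -1.04 for TRAF1. It was -0.67 for NFKBIA, -0.59 for NFKBIE, -0.58 for NFKB2, -0.25 for RELA and -0.19 for NFKB1. The WT libraries cancel in this difference, so these are the values of the comparison of the lines and not a further result. Groups of 3 libraries are too small for a test of single outlying libraries.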

How the results depend on the processing

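Counts are of the 10 genes at the threshold of 0.001, each with the share of all genes tested that passed at the same setting, and no scaling moved the median of all genes by over 0.1. For KO against WT (1, 32.1%) the count was 7 at 0.05 (59.6%), 2 by DESeq2 (41.4%), 5 with no filter (13.2%), 8 in 1 fit of all libraries (48.4%), 8 with separate lines (50%) and 0 with the replicate block (23.9%, NFKB2 adjusted p = 0.0028). For KO1 against WT (7, 41.7%) it was 3 with a fold change of 1.5 (4.59% higher and 9.28% lower). For MK2206 in KO (0, 21.5%) it was 2 at 0.05 (47.3%) and 8 in 1 fit (37.2%) or with a covariate for the line (36.3%). For MK2206 in KO1 (5, 19.2%) it was 9 at 0.05 (45.2%) and 0 with the fold change (3.3% and 1.71%), and for MK2206 in KO2 (4, 21.9%) 7 at 0.05 (46.7%), 1 with the fold change (4.9% and 2.16%) and 7 with no filter (10.3%). For the difference between lines (0, 0.0128%) it was 1 at 0.05 (0.244%). For myrAKT against KO (1, 35.8%) it was 2 at 0.05 (62.7%), 0 with the fold change (9.39% and 6.81%), 4 with no filter (15.4%), 5 in 1 fit (51.1%) and 6 with separate lines (50.5%). For KO+MK against WT (0, 32%) it was 7 at 0.05 (59.7%), 2 by DESeq2 (41.2%), 1 with upper quartiles (32%), 7 with no filter (13.7%), 2 with at least 10 counts in every library (31.4%), 7 in 1 fit (49.7%) and 7 with separate lines (45.9%). With no filter, the shares are of 42387 genes. A looser threshold admits more genes by construction. For the other settings the cause was not tested.

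Leaving out each library in turn gave 0 to 2 genes for KO against WT and for KO+MK against WT, 2 to 8 for MK2206 in KO1 and 2 to 5 for MK2206 in KO2. Over all genes tested, the ranges in this order were 3394 to 4949, 3128 to 4954, 1748 to 3610 and 2156 to 3953. It gave 7 of the 10 genes for KO1 against WT, 8 to 10 for KO2 against WT, 9 to 10 for KO2 against KO1, 10 for myrAKT against WT, 1 for myrAKT against KO and 0 for the pooled MK2206 comparison and the difference between lines. The ranges over all genes were here 5080 to 6711, 5341 to 6853, 1161 to 1818, 3486 to 4366, 3824 to 5585, 2733 to 3097 and 1 to 5. A group left with 2 libraries keeps a spread of its own.

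Some log2 fold changes near 0, none of which passed, changed sign. NFKB1 in KO1 against WT was 0.0045 by DESeq2 and with its size factors, 0.034 with no filter and 0.016 in 1 fit, and ranged from -0.0060 to 0.011 on leaving out libraries. NFKB1 under MK2206 was 0.013 with library totals in the pooled comparison (-0.041 to 0.016 on leaving out libraries), and in KO1 -0.0054 with upper quartiles, -0.015 with no filter and -0.0067 in 1 fit (-0.0077 to 0.037). For myrAKT against KO, NFKBIA was 0.032 with upper quartiles, 0.037 with library totals and 0.012 with separate lines (-0.11 to 0.057), TRAF1 was -0.061 with no filter (-0.11 to 0.11) and RELB ranged from -0.0052 to 0.26. The difference of the MK2206 response between lines was 0.0076 for RELB with no filter (-0.062 to 0.037) and ranged from -0.087 to 0.023 for BIRC3. NFKBIE in KO+MK against WT was -0.016 with no filter. Of the other single values under settings that keep all libraries, 810 kept direction and side of the threshold, 86 newly passed and 10 no longer did.

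In 0 of 15 pairs of groups was every r between same-numbered replicates over 0.1 (r from -0.52 to 0.30). So few correlations cannot exclude a pairing by number. Differently numbered libraries had r up to 0.59 (myrAKT replicate 3 with KO1+MK replicate 1) and down to -0.47 (KO2 replicate 2 with myrAKT replicate 1). A spread shared across groups was not tested. The replicate block changed no call of a member but 3, losing NFKB2 in KO against WT and NFKBIE under MK2206 in KO1 and adding NFKB2 under MK2206 in KO2 (adjusted p = 2.3e-04). Over all genes, KO against WT called 5006, 7543 in 1 fit and 7789 with separate lines. The pooled MK2206 comparison called 3352, 5793 in 1 fit and 5665 with a line covariate, KO+MK against WT 4994 and 7741 in 1 fit, and KO2 against KO1 1964 and 3046 with no filter. Without WT replicate 3, KO+MK against WT called 3128. Without single libraries the difference between lines called 1 to 5 genes (5 without KO2+MK replicate 1, 1 without KO1+MK replicate 3 or any KO1 or KO2 replicate). With no filter, KO+MK against WT had 2083 higher and 3743 lower genes (2488 and 2506 with it), KO2 against KO1 had 887 and 2159 (864 and 1100). The difference between lines called 2, with 22 by DESeq2, 60 with no filter, 0 in 1 fit and 1 with the block.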
